A study of Rattus norvegicus with 12 samples.

Results

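The genes described here are 10 genes by which astrocytes are commonly recognised: Gfap, Aqp4, Gja1, S100b, Acsbg1, Sparcl1, Slc1a2, Slc1a3, Tril and Gpr37l1. Every probe set whose platform annotation gave a single symbol from this set was taken, which made 17 probe sets of 31042 on the array that are not controls, and 10 genes of 14217. Of the 17 probe sets, 16 passed a filter on low signals and were tested. The remaining one, 1369639_at for Gja1, lay below the filter on all 12 arrays. Where a gene had several probe sets, the brightest on average across all 12 arrays stood for it.

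Neural stem cells were cultured from Sprague Dawley rats aged postnatal day 3 to 5, taken from brain or from spinal cord. Their RNA was hybridised to 12 Affymetrix Rat230_2 arrays, 3 for each of 4 groups, and a transcript is read there near its 3' end by the short probes of a probe set. These were proliferative brain cultures (titled BNSC), differentiated brain cultures (BNSCfenhua), proliferative spinal cord cultures (SNSC) and differentiated spinal cord cultures (SNSCfenhua), where fenhua is the romanised Chinese word for differentiation. The sources used here give neither the method nor the duration of differentiation, and whether replicate arrays stem from different cultures or animals is unstated, so p-values cover just the spread among these arrays, which may be technical.

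Astrocytes are the glial cells that take up transmitter and potassium around synapses, carry water between tissue and blood vessels, and share ions and metabolites through gap junctions. Neural stem cells in culture divide under growth factors, and once these are withdrawn they can form astrocytes, oligodendrocytes and neurons. Several genes of astrocytes, among them the glutamate transporter Slc1a3 and the filament gene Gfap, are also active in radial glia and in neural stem cells themselves, so a signal before differentiation is part of their known biology.

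The promoters of 5 of the genes are shown first. Not shown are those of S100b, Aqp4, Acsbg1 and Gja1, whose responses also differed between the tissues. Those shown belong to Tril, Gfap, Gpr37l1 and Sparcl1, whose responses differed between the tissues, and to Slc1a3, whose standing probe set rose in both. Each is the 250 bases before a RefSeq transcript start on rat assembly GRCr8, written 5′ to 3′ on the strand of the gene. Capitals mark matches, on either strand, to the letters searched for STAT factors (TTCNNNGAA), the NFI core (TTGGC), SOX factors (ACAAAG and ACAATG), RBPJ (TGGGAA) and the TATA box (TATAAA).
Tril, chr4:84257627-84257876, minus strand: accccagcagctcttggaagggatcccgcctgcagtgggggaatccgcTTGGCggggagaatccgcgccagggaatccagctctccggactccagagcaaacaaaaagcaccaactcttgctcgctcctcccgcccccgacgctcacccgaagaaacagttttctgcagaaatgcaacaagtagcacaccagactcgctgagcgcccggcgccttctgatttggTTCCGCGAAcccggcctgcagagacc
Gfap, chr10:88361662-88361911, minus strand: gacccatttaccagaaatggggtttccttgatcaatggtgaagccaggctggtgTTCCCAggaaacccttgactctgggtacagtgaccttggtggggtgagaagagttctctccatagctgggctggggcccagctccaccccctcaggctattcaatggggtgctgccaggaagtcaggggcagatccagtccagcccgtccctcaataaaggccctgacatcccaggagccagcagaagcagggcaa
Gpr37l1, chr13:49157205-49157454, minus strand: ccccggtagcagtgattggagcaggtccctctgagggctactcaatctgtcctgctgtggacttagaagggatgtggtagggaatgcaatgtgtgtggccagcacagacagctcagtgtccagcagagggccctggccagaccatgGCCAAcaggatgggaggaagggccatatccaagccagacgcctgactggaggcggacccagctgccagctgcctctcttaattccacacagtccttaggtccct
Sparcl1, chr14:5937234-5937483, plus strand: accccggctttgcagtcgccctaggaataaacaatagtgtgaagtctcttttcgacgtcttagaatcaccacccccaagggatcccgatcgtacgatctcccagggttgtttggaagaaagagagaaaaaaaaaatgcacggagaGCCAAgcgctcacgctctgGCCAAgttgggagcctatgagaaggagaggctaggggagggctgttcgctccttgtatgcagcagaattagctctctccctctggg
Slc1a3, chr2:59557809-59558058, minus strand: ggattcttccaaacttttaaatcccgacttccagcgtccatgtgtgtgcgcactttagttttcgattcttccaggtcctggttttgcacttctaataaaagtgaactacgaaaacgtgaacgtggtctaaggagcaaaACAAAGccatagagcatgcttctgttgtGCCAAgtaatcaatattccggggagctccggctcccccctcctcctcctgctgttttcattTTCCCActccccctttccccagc

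All 10 genes matched a promoter in the RefSeq table, with 14 windows between them, because Slc1a3, Slc1a2 and Aqp4 had more than 1 start, of which 1 of 3 is shown for Slc1a3. The NFI core lay in windows of 7 of the 10 genes and in 9 of the 14 windows, against 40.3% of the 33469 rat promoters of the same length. The 3 Slc1a3 windows overlap and hold the same matches, so each is counted 3 times in counts of windows. The shares of all promoters are of single windows, so the counts of genes have no like share beside them. The STAT letters lay in Tril, 26 bases before the start, and in Acsbg1, against 7.67% of all promoters. RBPJ letters were found in Gfap and Slc1a3, against 22.1%, and ACAAAG in Slc1a3 and Aqp4, against 16.3%. ACAATG (11.1% of all promoters) and TATAAA (12.9%) matched none of the 14. An E-box of the letters CANNTG, which is not capitalised, lay in 10 of the 14, against 65.5%, and at Slc1a2 it overlapped the NFI core. A match describes these letters and says nothing about binding. No link between the matches and the responses was tested.

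Values throughout are the deposited log2 signals, on which a difference of 1 is a doubling, and a level of one probe set cannot be set against that of another. Within groups the arrays correlated at 0.930 to 0.948 and between groups at 0.845 to 0.909, and array medians lay between 6.87 and 7.22. A group is called dim for a probe set when all 3 of its arrays lie below their own 40th percentile (5.91 to 6.41), and a fold against a dim group is given as at least the distance to that percentile. Differences were tested with limma over 20834 probe sets, and a probe set is called when its Benjamini-Hochberg adjusted p is under 0.05.

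In brain cultures nearly all of these genes rose with differentiation, whereas in spinal cord cultures they divided. Of the 16 tested probe sets, 14 rose, 1 fell and 1 was not called in brain, where 23.7% of all tested probe sets were called higher and 23.1% lower. In spinal cord 9 rose, 4 fell and 3 were not called, against 18.3% higher and 22% lower over the array. The arrays of the states did not overlap for 15 higher and 1 lower probe set in brain, against 29.3% and 29% of all tested, and for 9 higher and 4 lower in spinal cord, against 23.4% and 27%. By the probe set standing for each gene, 9 of 10 genes rose in brain with a median log2 change of 3.18, and 5 rose and 3 fell in spinal cord with a median of 0.29. The medians over all 11218 genes tested were -0.06 in brain and -0.04 in spinal cord. All of these are bulk samples, so fewer cells of a type and less RNA per cell cannot be told apart.

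The scale of the arrays touches these backgrounds. Centring every array on its median moved the median change of all tested probe sets by -0.15 in brain and by 0.08 in spinal cord. It also took the share of calls that were higher in brain from 50.6% to 38.2%, with 18% of tested probe sets higher and 29.2% lower, while the astrocyte probe sets still gave 14 higher and 1 lower. No astrocyte probe set that was called changed direction under either other scaling.

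**Figure D1:**
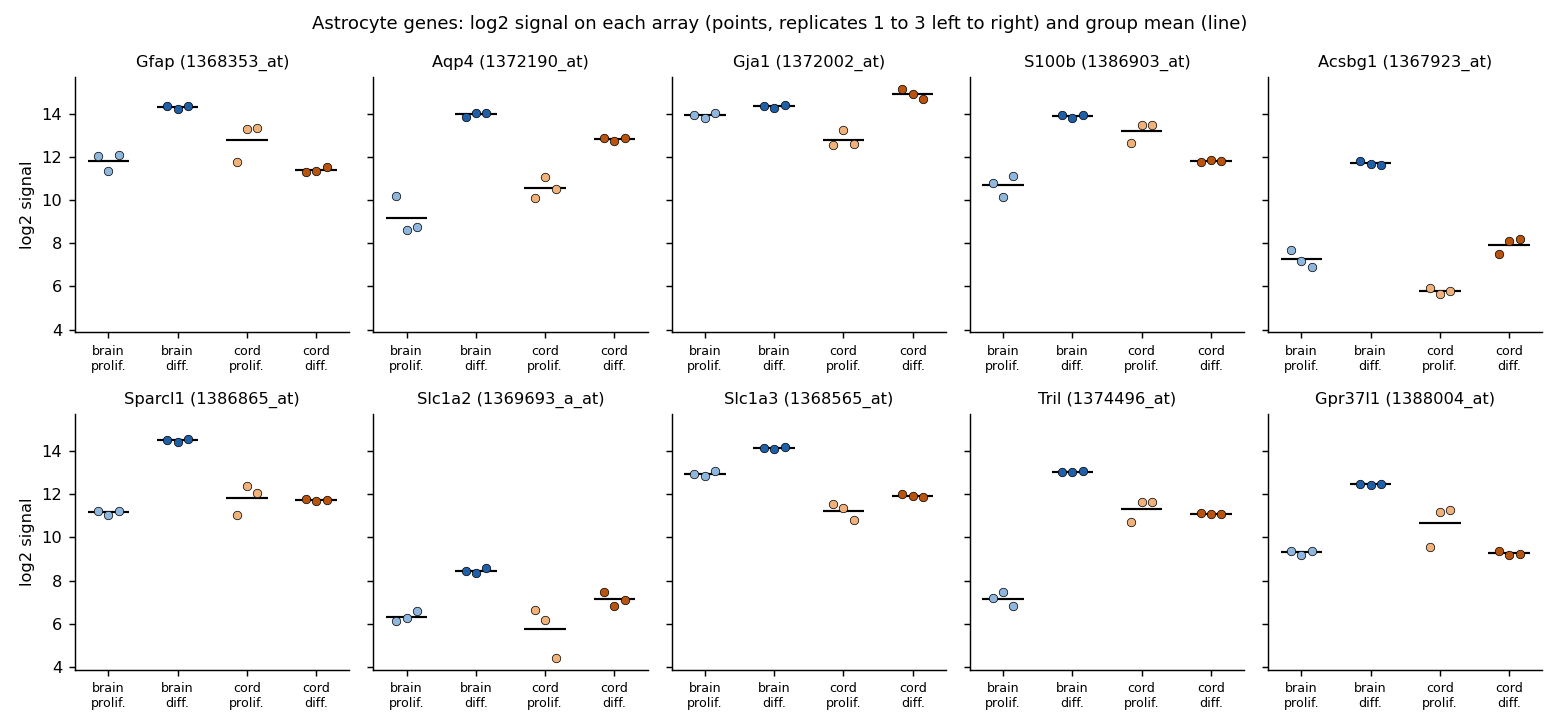
Log2 signal (y axis) of the probe set standing for each gene in the 4 groups (x axis: brain and spinal cord cultures, proliferative and differentiated), with 1 point per array and a line at the group mean. The differentiated brain arrays are the highest group for 9 of the 10 genes, the exception being Gja1, and the 3 proliferative spinal cord arrays are spread widely for Gfap and Gpr37l1.

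Gfap encodes the glial fibrillary acidic protein, the intermediate filament most often used to stain astrocytes. Its probe set 1368353_at read 12.02, 11.35 and 12.11 in proliferative brain cultures and 14.36, 14.20 and 14.36 in differentiated ones. In spinal cord cultures it read 11.78, 13.28 and 13.34 before differentiation and 11.32, 11.34 and 11.52 after it. Differentiated brain arrays were thus the highest of all, and differentiated spinal cord arrays lay below all proliferative spinal cord arrays. Gfap rose 5.58-fold in brain (log2 change 2.48 ± 0.32 SE, adjusted p = 2.77e-05) and fell 2.64-fold in spinal cord (log2 change -1.40, adjusted p = 0.00307).

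The responses of Gfap in the tissues differed by -3.88 on the log2 scale (spinal cord minus brain, 95% interval -4.85 to -2.92, adjusted p = 1.50e-05). After differentiation Gfap was 7.53-fold lower in spinal cord than in brain cultures (adjusted p = 6.12e-06). Before it, Gfap was 1.96-fold higher in spinal cord (adjusted p = 0.0274), but the arrays overlapped. That call was lost without proliferative brain replicate 2, or without proliferative spinal cord replicate 2 or 3, where the adjusted p ran from 0.116 to 0.128, and it was lost under median centring (adjusted p = 0.0739).

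S100b, a small calcium-binding protein of astrocytes that oligodendrocyte lineage cells and Schwann cells also make, followed the same order of responses. Its probe set 1386903_at read 10.79, 10.12 and 11.14 in proliferative and 13.93, 13.78 and 13.94 in differentiated brain cultures. The spinal cord arrays read 12.63, 13.48 and 13.48 before and 11.75, 11.85 and 11.80 after differentiation. No neighbouring groups overlapped, and the order ran from proliferative brain through differentiated and proliferative spinal cord to differentiated brain. S100b rose 9.18-fold in brain (adjusted p = 2.03e-07) and fell 2.63-fold in spinal cord (adjusted p = 0.000352), and the difference of the responses was -4.60 ± 0.33 (SE, adjusted p = 2.36e-07). It was 5.71-fold higher in spinal cord than in brain before differentiation and 4.24-fold lower after it.

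Aqp4 encodes an aquaporin, the water channel of astrocyte endfeet at blood vessels. Its brightest probe set, 1372190_at, read 10.18, 8.63 and 8.75 in proliferative and 13.85, 14.04 and 14.04 in differentiated brain cultures. In spinal cord it read 10.12, 11.05 and 10.50 before and 12.85, 12.76 and 12.87 after differentiation. The proliferative groups overlapped, and each differentiated group lay above both of them. The rise was 27.7-fold in brain (log2 change 4.79 ± 0.32 SE, adjusted p = 8.00e-08) and 4.82-fold in spinal cord (2.27 ± 0.32, adjusted p = 7.89e-05).

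Both other Aqp4 probe sets rose as well. Probe set 1368981_at rose 29.9-fold in brain and 6.68-fold in spinal cord, and 1387397_at rose at least 3.31-fold in brain, where the proliferative group was dim, and 1.92-fold in spinal cord. Only 1 of the 3 proliferative brain arrays was above its 40th percentile for 1368981_at. With a pseudocount of 64 on the linear signal, its log2 change was 3.94 in place of 4.90 in brain and 2.13 in place of 2.74 in spinal cord, and that of 1387397_at in brain was 1.27. The call for 1387397_at in spinal cord was lost without proliferative spinal cord replicate 1 (adjusted p = 0.0627) or differentiated spinal cord replicate 2 (0.0613). The responses differed by -2.52, -2.16 and -1.06 for 1372190_at, 1368981_at and 1387397_at, so the rise was smaller in spinal cord by all 3. The last of these rests on a dim group and had an adjusted p of 0.0488. That call was lost when any of 10 of the 12 arrays was left out, with no filter (0.0836), under median centring (0.0981) and after quantile normalization (0.127).

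In the comparison of tissues, Aqp4 by 1372190_at was 2.58-fold higher in proliferative spinal cord cultures (adjusted p = 0.00412, arrays overlapping) and 2.22-fold lower in differentiated ones (adjusted p = 0.0102). Probe set 1368981_at was 1.48-fold higher before (adjusted p = 0.0212) and 3.03-fold lower after differentiation. Its call before differentiation was lost without proliferative brain replicate 2 or 3 or proliferative spinal cord replicate 1 or 3, and under both other scalings. For 1387397_at the tissues were not called apart in either state (adjusted p = 0.194 and 0.128).

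Gja1 encodes the connexin that is the main gap junction protein of astrocytes, which fibroblasts and many other cells also make. It was the only gene of the 10 for which the test of the difference called a higher signed change in spinal cord than in brain. The standing probe set 1372002_at read 13.96, 13.82 and 14.05 in proliferative and 14.37, 14.28 and 14.39 in differentiated brain cultures. Spinal cord arrays read 12.56, 13.24 and 12.59 before and 15.16, 14.91 and 14.69 after differentiation. The groups did not overlap and were ordered from proliferative spinal cord through proliferative and differentiated brain to differentiated spinal cord.

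By 1372002_at, Gja1 rose 4.36-fold in spinal cord (adjusted p = 2.62e-07), and the brain change of 0.40 (95% interval 0.06 to 0.74) was not called (adjusted p = 0.0514). In brain it was called after quantile normalization (adjusted p = 0.0121) and in a fit of the brain arrays alone (adjusted p = 0.00294). Probe set 1369640_at rose 1.83-fold in brain (adjusted p = 3.55e-05) and 23.4-fold in spinal cord (adjusted p = 2.80e-11), from 8.61 ± 0.23 to 13.16 ± 0.09 (SD, n = 3). The responses differed by 1.72 ± 0.22 for 1372002_at and 3.68 ± 0.16 for 1369640_at (SE, adjusted p = 4.20e-05 and 5.29e-09). Before differentiation Gja1 was lower in spinal cord than in brain, 2.22-fold and 2.89-fold by these probe sets, and after it 1.49-fold and 4.42-fold higher. The 1.49-fold difference had an adjusted p of 0.0100, or 0.0534 without differentiated spinal cord replicate 1. The 1369639_at probe set, which reads the same gene, lay between 2.43 and 5.45 on all arrays and was dim in all 4 groups.

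Slc1a3 (GLAST) and Slc1a2 (GLT-1) are the plasma membrane transporters by which astrocytes clear glutamate from synapses, GLAST being the one also typical of radial glia. For Slc1a3, 1368565_at read 12.95, 12.86 and 13.06 in proliferative and 14.13, 14.08 and 14.21 in differentiated brain cultures. Spinal cord arrays read 11.56, 11.37 and 10.80 before and 11.99, 11.90 and 11.89 after differentiation. All 6 spinal cord arrays lay below all 6 brain arrays, and no neighbouring groups overlapped. The gene rose 2.28-fold in brain (adjusted p = 1.86e-05) and 1.61-fold in spinal cord (adjusted p = 0.00192).

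The responses of 1368565_at differed by -0.50, with a 95% interval from -0.94 to -0.06, which was not called (adjusted p = 0.0671). Without proliferative spinal cord replicate 3 it was called (1.65-fold smaller rise in spinal cord, adjusted p = 0.000659). In spinal cord Slc1a3 was 3.28-fold lower than in brain before and 4.64-fold lower after differentiation (adjusted p = 9.31e-07 and 4.76e-08). Probe set 1388064_a_at moved the same way, 3.06-fold up in brain and 2.01-fold up in spinal cord, and its responses differed by -0.61 (adjusted p = 0.0119, or 0.132 under median centring).

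The remaining Slc1a3 probe set, 1371130_at, went the opposite way in all 4 pairwise comparisons. It read 8.37, 8.09 and 7.87 in proliferative brain, 7.20, 7.52 and 6.92 in differentiated brain, 9.46, 10.40 and 10.40 in proliferative spinal cord and 8.38, 8.07 and 7.92 in differentiated spinal cord. The proliferative spinal cord arrays were the highest, and proliferative brain and differentiated spinal cord arrays overlapped. It fell 1.86-fold in brain (adjusted p = 0.00968) and 3.90-fold in spinal cord (adjusted p = 3.34e-05). In spinal cord it was 3.94-fold higher than in brain before and 1.88-fold higher after differentiation. The responses differed by -1.07 (adjusted p = 0.0270), a call lost under median centring (0.0754) and quantile normalization (0.0517). It was also lost without proliferative brain replicate 3, differentiated brain replicate 2, or replicate 2 or 3 of either spinal cord group, at adjusted p from 0.0532 to 0.0731. Since the probe sets of Slc1a3 disagree, its direction rests on which of them is read.

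Slc1a2 was measured near the low end of the scale. Probe set 1369693_a_at read 6.12, 6.27 and 6.58 in proliferative and 8.43, 8.33 and 8.60 in differentiated brain cultures. In spinal cord it read 6.64, 6.20 and 4.41 before and 7.46, 6.84 and 7.09 after differentiation, the lowest array being proliferative spinal cord replicate 3. Only 1 of these 3 proliferative spinal cord arrays was above its 40th percentile. Slc1a2 rose 4.39-fold in brain (adjusted p = 0.00120) and 2.60-fold in spinal cord (adjusted p = 0.0215). The size of both rises depends on the low signals: with a pseudocount of 64 the log2 change was 1.52 in place of 2.13 in brain and 0.72 in place of 1.38 in spinal cord.

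The spinal cord call of 1369693_a_at was lost without differentiated spinal cord replicate 1 (adjusted p = 0.0798), and without proliferative spinal cord replicate 3 it was 1.64-fold (adjusted p = 0.0505). The responses differed by -0.75 (95% interval -2.08 to 0.57, adjusted p = 0.356), and by a called 2.68-fold without that proliferative replicate 3 (adjusted p = 0.00675). Differentiated spinal cord cultures held 2.51-fold less Slc1a2 signal than differentiated brain cultures (adjusted p = 0.0252). Leaving out any of the 3 brain arrays or differentiated spinal cord replicate 2 or 3 gave adjusted p from 0.0526 to 0.0843.

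The second Slc1a2 probe set, 1369694_at, rose 2.60-fold in brain, from 6.04 ± 0.28 to 7.42 ± 0.31 (SD, n = 3, adjusted p = 0.00192). In spinal cord its change was 0.06 (95% interval -0.59 to 0.70, adjusted p = 0.900), from 6.15 ± 0.33 to 6.21 ± 0.35 (SD, n = 3). The responses differed by -1.32 (adjusted p = 0.0232), a call lost without differentiated brain replicate 2 or 3 or differentiated spinal cord replicate 3 (adjusted p 0.0560 to 0.0628), and after quantile normalization (0.0539). Both Slc1a2 probe sets therefore rose in brain, and only 1369693_a_at was called in spinal cord.

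**Figure D2:**
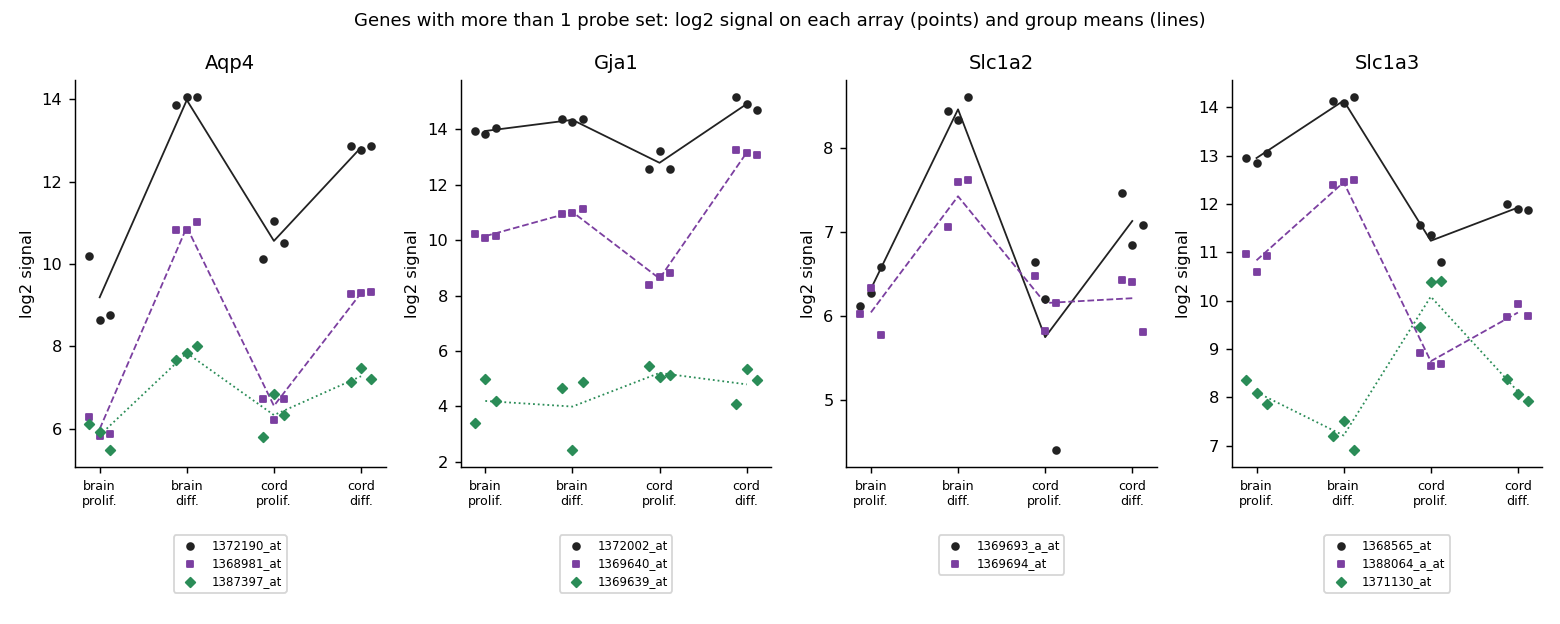
Log2 signal (y axis) in the 4 groups (x axis) for the 4 genes with more than 1 probe set, with 1 point per array and lines joining group means. The probe sets of Aqp4 run alongside each other, 1369639_at of Gja1 stays low, and 1371130_at of Slc1a3 is highest in proliferative spinal cord cultures, where the other Slc1a3 probe sets are lowest.

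Acsbg1 encodes the bubblegum acyl-CoA synthetase, which activates long and very long chain fatty acids. Its probe set 1367923_at read 7.70, 7.17 and 6.91 in proliferative and 11.81, 11.69 and 11.64 in differentiated brain cultures. Proliferative spinal cord arrays read 5.92, 5.67 and 5.79, which is dim, and differentiated ones 7.51, 8.09 and 8.21. Differentiated brain arrays stood far above the rest, and differentiated spinal cord arrays overlapped proliferative brain arrays. Acsbg1 rose 21.9-fold in brain (adjusted p = 4.18e-09) and at least 2.99-fold in spinal cord (adjusted p = 4.23e-06). After differentiation it was 13.7-fold lower in spinal cord than in brain (adjusted p = 1.31e-08), and before it at least 1.87-fold lower. With a pseudocount of 64 the log2 change in spinal cord was 1.38 and the difference between the proliferative tissues -0.87. The difference of responses was -2.31 (adjusted p = 4.85e-05), and its size rests on a group that was dim.

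Sparcl1, also called hevin, is a secreted matricellular protein of astrocytes that promotes synapse formation. Probe set 1386865_at read 11.21, 11.05 and 11.23 in proliferative and 14.54, 14.42 and 14.55 in differentiated brain cultures. Its spinal cord arrays read 11.04, 12.39 and 12.06 before and 11.77, 11.70 and 11.71 after differentiation, so the states overlapped. Sparcl1 rose 10.1-fold in brain (log2 change 3.34 ± 0.23 SE, adjusted p = 1.20e-07). Its spinal cord change was -0.10 (95% interval -0.60 to 0.40, adjusted p = 0.764). Without proliferative spinal cord replicate 1 that change was -0.50, a fall of 1.41-fold (adjusted p = 0.00139).

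The responses of Sparcl1 differed by -3.44 (adjusted p = 2.86e-06). In differentiated cultures it was 6.84-fold lower in spinal cord than in brain (adjusted p = 5.03e-07). In proliferative cultures it was 1.59-fold higher in spinal cord with overlapping arrays (adjusted p = 0.0370), and the adjusted p was 0.0623 to 0.175 without any of the 3 brain arrays or without spinal cord replicate 2 or 3.

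Tril is a leucine-rich repeat membrane protein that takes part in Toll-like receptor signalling in glia, and it showed the largest brain response of the 10 genes. Probe set 1374496_at read 7.21, 7.46 and 6.82 in proliferative and 13.03, 13.01 and 13.06 in differentiated brain cultures. In spinal cord it read 10.73, 11.63 and 11.63 before and 11.15, 11.09 and 11.07 after differentiation. Proliferative brain arrays stood alone at the low end, and the spinal cord states overlapped. Tril rose 58.4-fold in brain (log2 change 5.87 ± 0.21 SE, adjusted p = 2.53e-10).

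In spinal cord the change of Tril was -0.23 (95% interval -0.67 to 0.22, adjusted p = 0.411). Without proliferative spinal cord replicate 1 it was a 1.44-fold fall (adjusted p = 0.00869). The difference of responses was -6.10 ± 0.29 (SE, adjusted p = 9.08e-09). Tril was 18.0-fold higher in spinal cord than in brain cultures before differentiation (adjusted p = 8.17e-09) and 3.81-fold lower after it (adjusted p = 5.21e-06).

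Gpr37l1 encodes an orphan G protein-coupled receptor of astrocytes for which prosaposin has been proposed as a ligand. Probe set 1388004_at read 9.38, 9.18 and 9.37 in proliferative and 12.49, 12.44 and 12.47 in differentiated brain cultures. Its arrays from spinal cord read 9.57, 11.17 and 11.27 before and 9.36, 9.18 and 9.23 after differentiation. Proliferative brain and differentiated spinal cord arrays overlapped, and differentiated brain arrays were the highest. Gpr37l1 rose 8.92-fold in brain (adjusted p = 3.01e-06) and fell 2.66-fold in spinal cord (adjusted p = 0.00270). It was 2.57-fold higher in spinal cord before differentiation (adjusted p = 0.00383) and 9.25-fold lower after it (adjusted p = 2.10e-06), and the responses differed by -4.57 (adjusted p = 3.17e-06).

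**Figure D3:**
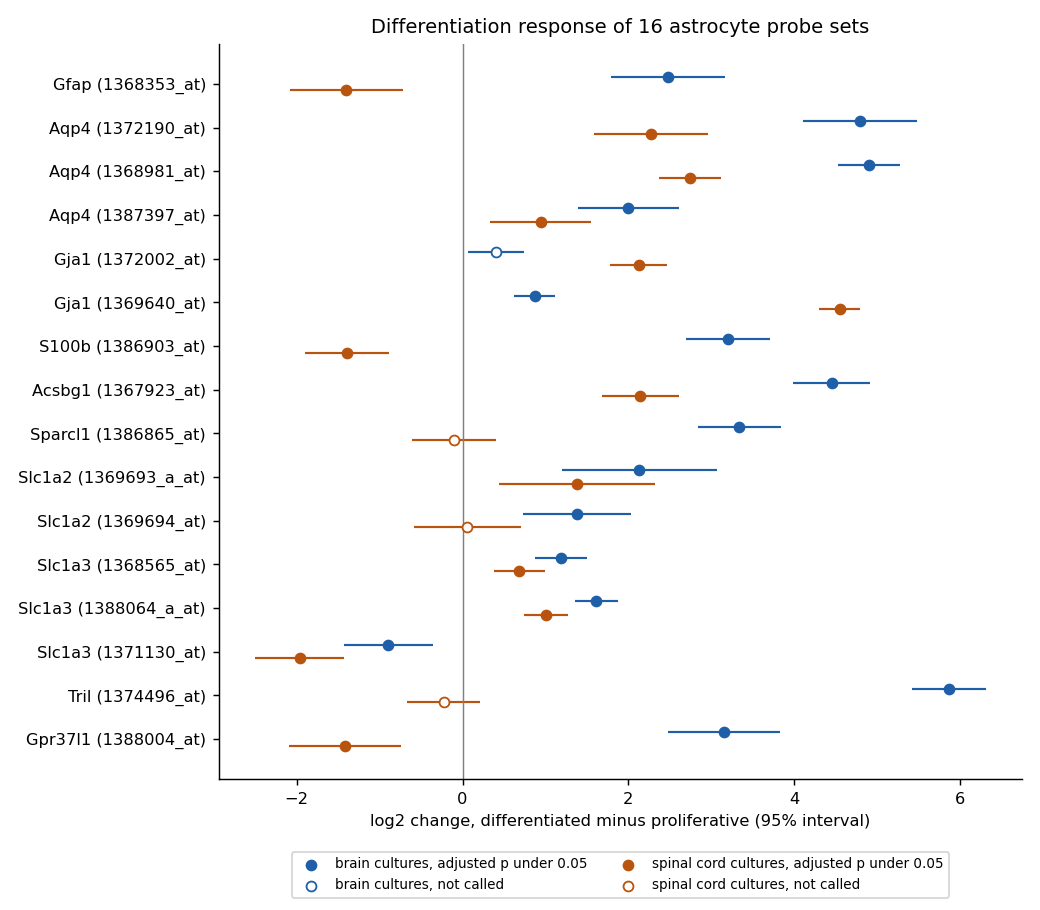
Log2 change from proliferative to differentiated cultures (x axis) with its 95% interval for the 16 tested probe sets (y axis), in brain (blue) and spinal cord (orange). Open points were not called at an adjusted p of 0.05. Brain points lie above 0 for 15 of the 16 probe sets, while the called spinal cord points of Gfap, S100b, Gpr37l1 and 1371130_at of Slc1a3, and those of Sparcl1 and Tril, which were not called, lie below it.

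The difference of responses was called for 14 of the 16 probe sets, 12 lower and 2 higher in spinal cord, where 21.7% of all tested probe sets were called lower and 18.8% higher. Both of those called higher belong to Gja1. With every array centred on its median, the background became 16.2% lower and 25.7% higher, and the share of calls that were higher went from 46.4% to 61.3%, the median over all tested probe sets having moved by 0.23. Gfap, S100b and Gpr37l1 were called in opposite directions in the tissues, whereas Aqp4, Acsbg1 and Slc1a3 by its standing probe set rose in both.

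Between differentiated cultures 12 of 16 probe sets were lower in spinal cord than in brain and 3 were higher, against 22.9% and 18.5% of all tested probe sets. Arrays did not overlap for 13 lower and 3 higher, against 31% and 26.1%. The 3 higher ones were both tested Gja1 probe sets and 1371130_at of Slc1a3. By standing probe sets all genes other than Gja1 were lower, with a median over the 10 of -2.15. The largest of these differences belonged to Acsbg1, Gpr37l1, Gfap and Sparcl1.

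Between proliferative cultures 8 of 16 were higher in spinal cord and 5 lower, against 19.4% and 18.5% of all tested probe sets. With median centring, which moved the median of all tested probe sets by -0.21 and took the share of calls that were higher from 51.2% to 31.7%, 5 were higher, against a background of 13.8% higher and 29.8% lower. A fit of the proliferative arrays alone also gave 5. Arrays did not overlap for 4 higher and 5 lower, against 22.2% and 23.3%. Tril, S100b and Gpr37l1 were higher in spinal cord with arrays that did not overlap, and Gja1, Slc1a3 by 1368565_at and Acsbg1 were lower. These comparisons share samples: each proliferative or differentiated group enters several of them, so they are not separate evidence.

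Among the members, the levels of Gfap and Gpr37l1 were most alike over the 12 arrays, with a root mean square difference of 0.28 on the log2 scale after each was centred on its own mean. Next came Sparcl1 and Gpr37l1 at 0.49 and Gfap and Sparcl1 at 0.58. The pair most unlike was Slc1a3 and Tril at 2.32. Thus Gfap, Gpr37l1, Sparcl1 and, at 0.63 from Gpr37l1, S100b lay close to each other, and the glutamate transporters Slc1a2 and Slc1a3 lay 0.74 apart.

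The same measure against 11208 other genes named the 2 nearest to each member. Ndrg2, a gene of the N-myc downstream-regulated family that is strong in astrocytes, was nearest both to Gfap (0.19) and to Gpr37l1 (0.32). Aldoc, the brain aldolase of astrocytes, was next for Gpr37l1 (0.42) and for S100b (0.33). Slc25a23 was the next nearest to Gfap at 0.37, and Chadl was the nearest to S100b at 0.32. For Ndrg2 the group means were 10.13, 12.53, 11.01 and 9.74 in proliferative brain, differentiated brain, proliferative spinal cord and differentiated spinal cord, against 11.83, 14.31, 12.80 and 11.40 for Gfap.

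Aqp4 was most like Rassf10 (0.59) and Tmem163 (0.61), and Acsbg1 most like Mfsd4a (0.27) and then Crym (0.79). Gja1 lay nearest to Nherf1 (0.22), a scaffold protein of membrane transporters, and to Flywch2 (0.23). Slc1a3 lay nearest to Slc27a1 (0.23), a fatty acid transporter, and Epas1 (0.27), a hypoxia-inducible transcription factor. For Slc1a2 the nearest were Col4a5 (0.38) and Gcnt2 (0.44), and for Sparcl1 the receptor S1pr3 (0.41) and the lipase Mgll (0.45). Tril was nearest to the matrix glycoprotein Tnr (0.47) and to Pnlip (0.53). Each distance is a description over 12 arrays that fall into 4 groups.

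Proliferative spinal cord replicate 1 stood apart from replicates 2 and 3 for several of these genes. It lay below their mean by 1.53 for Gfap, 1.65 for Gpr37l1, 1.18 for Sparcl1, 0.90 for Tril and 0.86 for S100b. Replicates 2 and 3 differed by 0.10 for Gpr37l1 and by less for Gfap, S100b and Tril. More than 1 log2 unit lower were 3 of 16 probe sets (18.75%), against 4.45% of all 20834. Slc1a3 by its main probe sets, Slc1a2 and Acsbg1 were instead higher on replicate 1 than the mean of the others.

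Left out, that array changed the size more than the direction. The spinal cord fall became 3.77-fold for Gfap, 3.89-fold for Gpr37l1 and 3.21-fold for S100b, and in that comparison 8 probe sets rose and 6 fell, Sparcl1 and Tril being the ones added to those that fell and 1387397_at of Aqp4 the one lost. The difference of responses then ran to -4.39 for Gfap, -4.88 for S100b, -5.12 for Gpr37l1 and -6.39 for Tril, with 12 probe sets lower and 2 higher as before. In proliferative cultures the excess in spinal cord became 2.79-fold for Gfap and 2.09-fold for Sparcl1, with adjusted p of 1.41e-05 and 2.20e-06.

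**Figure D4:**
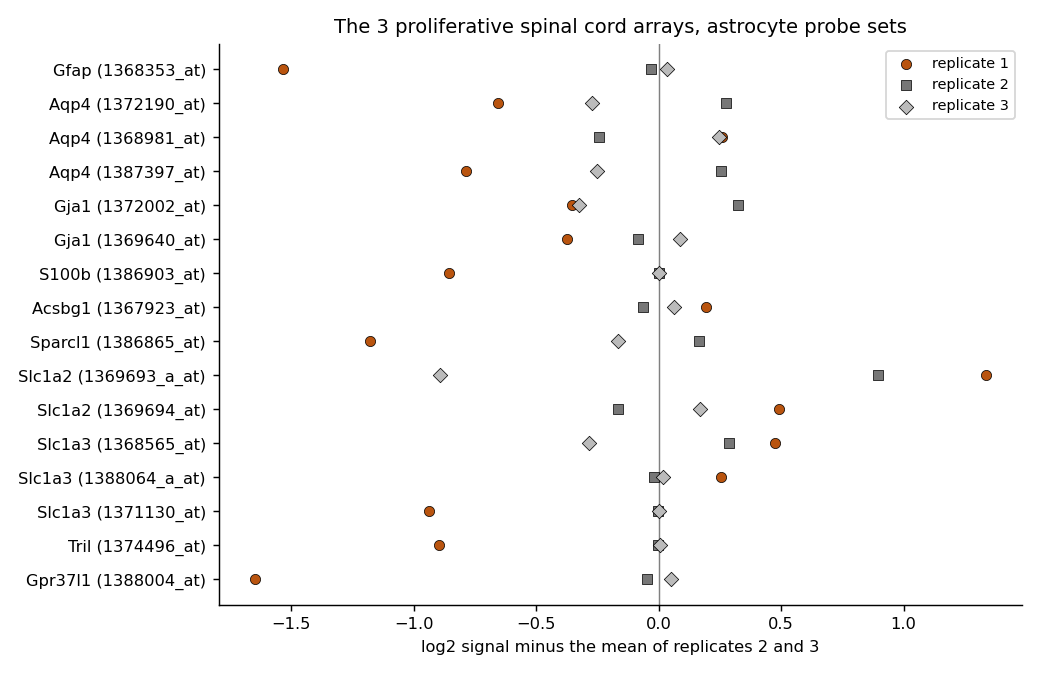
Log2 signal of each proliferative spinal cord array minus the mean of replicates 2 and 3 (x axis) for the 16 tested probe sets (y axis). Replicate 1 lies left of the others by 1.53 for Gfap and 1.65 for Gpr37l1 and to the right of them for Slc1a3 by 1368565_at and for Acsbg1, while replicate 3 is the low array of Slc1a2 by 1369693_a_at.

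Other genes of the same functions are given next by the probe set standing for each. They were grouped in lists by known function, chosen with earlier results of these data known. Counts of rises and falls include genes that were dim in both groups compared. Among these were Gja4 and Tlr1, which rose in brain, and Btbd17 and Hes5, which fell in spinal cord. Over all genes tested, 24.1% rose and 28.5% fell in brain, and 20.9% rose and 22.6% fell in spinal cord.

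Of 30 further astrocyte genes tested, 21 rose and 3 fell in brain, with a median change of 1.89, and 7 rose and 11 fell in spinal cord, with a median of -0.18. Slc25a18, a mitochondrial glutamate carrier, rose 24.5-fold in brain, from 6.33 to 10.95 (adjusted p = 1.91e-08). Itih3, a hyaluronan-binding protein, rose at least 8.10-fold, and Btbd17 at least 4.39-fold, from dim groups. In spinal cord the largest change was a 58.7-fold rise of Gjb2, another connexin, from 7.90 to 13.78 (adjusted p = 1.25e-08), and Atp1b2, a sodium pump subunit, fell 3.92-fold. After differentiation 24 of the 30 were lower and 2 higher in spinal cord than in brain, against 22.4% and 22.3% of all genes. The response of 17 was lower in spinal cord and that of 2 higher, against 21.2% and 23.7%.

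Partners of Aqp4 at the endfoot and in potassium handling rose with it in brain. Of 13 tested, 11 rose and none fell there, and 3 rose and 3 fell in spinal cord. Mlc1, a membrane protein of astrocyte junctions, rose by 2.81 on the log2 scale in brain, from 10.14 to 12.95 (adjusted p = 1.10e-06), and was 10.5-fold lower in spinal cord than in brain after differentiation. Dmd (dystrophin) rose at least 4.14-fold and the aquaporin Aqp9 at least 4.96-fold in brain. In spinal cord Slc4a4, the sodium bicarbonate cotransporter, rose 2.59-fold (adjusted p = 0.000160) while Atp1b2 fell. Several of these genes are also in the wider astrocyte list.

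Around Gja1, the connexins and pannexins with their junction partners numbered 9 tested, Gja1 included. In brain 4 rose and 1 fell, and in spinal cord 3 rose and none fell. Of the brain rises, that of Gja4 ran from 3.56 to 5.31, dim in both states. Gjb1 and Gjb2 rose there from dim groups, at least 1.42-fold and 1.55-fold. The 3 that rose in spinal cord were Gjb2, which is also in the wider astrocyte list, Gja1 and Gjc1 (1.94-fold, adjusted p = 0.000207). Before differentiation Gjb1, a connexin of myelinating cells, was at least 8.55-fold higher in spinal cord than in brain cultures.

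Beside the glutamate transporters, 14 genes of glutamate and GABA handling gave 8 rises and 2 falls in brain and 2 rises and 6 falls in spinal cord. Slc38a3, a glutamine transporter, rose 4.35-fold in brain (adjusted p = 0.00182) and fell at least 2.11-fold in spinal cord. Slc1a5, a neutral amino acid transporter, fell by 2.48 on the log2 scale in brain (adjusted p = 7.54e-07). Glul, the glutamine synthetase of astrocytes, was 2.76-fold higher in spinal cord than in brain before differentiation (adjusted p = 6.27e-06).

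Relatives of Gpr37l1, S100b, Sparcl1, Acsbg1 and Tril were read the same way. Gpr37, its closest relative, rose 6.07-fold in brain, from 6.81 to 9.41 (adjusted p = 1.02e-05), and fell 1.99-fold in spinal cord (adjusted p = 0.0162). It was 16.2-fold higher in spinal cord than in brain before differentiation. The ligand candidate Psap, prosaposin, rose 2.01-fold in brain, and its response was lower in spinal cord (-1.10, adjusted p = 0.000480). All 3 genes tested of that list had lower responses in spinal cord.

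Of 10 S100 genes, 5 rose and 4 fell in brain and 5 rose and 1 fell in spinal cord. S100a13 rose in both, 8.19-fold in brain and 2.40-fold in spinal cord. Of 11 genes of the Sparc family and other matricellular proteins, 4 rose and 3 fell in brain and 5 rose and 3 fell in spinal cord. Smoc1 rose 4.28-fold in brain and fell 7.22-fold in spinal cord, with a difference of responses of -4.95 (adjusted p = 5.97e-07), and Fstl1 rose 3.86-fold in spinal cord.

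Among 13 genes of fatty acid activation and oxidation, 11 rose and 1 fell in brain, or 6 rose under median centring. Slc27a1 rose 2.49-fold and Acsl4 fell 2.95-fold in brain. In spinal cord 5 rose and 4 fell, with Acsl6 at least 2.86-fold lower and Cpt1a, the gate of mitochondrial fatty acid uptake, 2.37-fold higher. Of 12 Toll-like receptor genes, 4 rose in brain and 5 in spinal cord with none falling in either. Lbp, the lipopolysaccharide-binding protein, rose 15.6-fold in spinal cord (adjusted p = 5.54e-05). It went from 9.60 ± 1.40 to 13.56 ± 0.17 (SD, n = 3), so the proliferative arrays were widely spread. Myd88, the adaptor of these receptors, rose 2.16-fold there and was also called higher in brain.

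Intermediate filaments other than Gfap mostly fell where they changed. Of 12 tested, 2 rose and 7 fell in brain, and 1 rose and 5 fell in spinal cord. The keratin Krt18 fell from 9.76 to a dim 5.81 in brain, and at least 3.96-fold in spinal cord. Lmna, which encodes lamin A, fell 4.34-fold in brain.

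Genes known from reactive astrocytes were counted apart, and no test compared them with the wider astrocyte genes. In brain 9 of 26 rose and 9 fell, and in spinal cord 12 rose and 6 fell. Emp1 fell 17.8-fold in brain, from 13.49 to 9.34 (adjusted p = 9.82e-10), and the cyclooxygenase Ptgs2 fell at least 6.79-fold. Steap4 rose 14.2-fold (adjusted p = 4.73e-05) and the complement inhibitor Serping1 11.4-fold (adjusted p = 0.000218) in spinal cord. Their proliferative arrays there were widely spread, so the size of both folds is uncertain. Steap4 went from 8.37 ± 1.48 to 12.20 ± 0.22 and Serping1 from 10.46 ± 1.65 to 13.97 ± 0.12 (SD, n = 3). After differentiation 15 of the 26 were higher and 3 lower in spinal cord than in brain, against 22.3% and 22.4% of all genes.

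Transcription factors known from astrocyte development gave 6 rises and 4 falls of 20 in brain and 7 rises and 8 falls in spinal cord. Zbtb20 rose 2.22-fold in brain (adjusted p = 4.48e-06) and Rorb fell 3.09-fold. The forebrain factors Lhx2 and Emx2 marked the tissue: before differentiation Lhx2 was 70.0-fold lower in spinal cord, at 6.04 against 12.17 (adjusted p = 2.82e-05), and Emx2 at least 15.9-fold lower. That spinal cord mean of Lhx2 (SD 1.36) lay below the 40th percentiles of its arrays (6.31 to 6.41), so the size of its fold rests on low signals. Of these 20 genes 13 were lower and 2 higher in spinal cord before differentiation, against 22.8% and 21.2% of all genes.

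**Figure D5:**
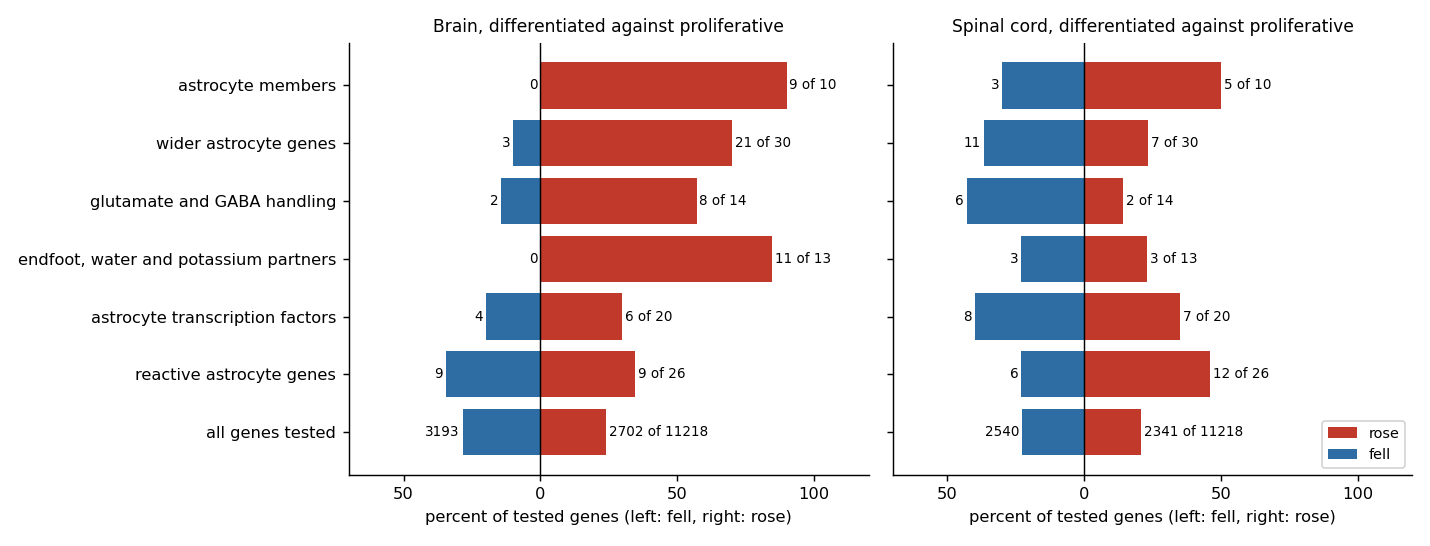
Percent of the tested genes of each list (y axis) that rose (red, right) or fell (blue, left) with differentiation in brain and in spinal cord (x axis, percent), with the counts printed at the bars. In brain 9 of 10 astrocyte members and 21 of 30 wider astrocyte genes rose, and in spinal cord 5 of 10 and 7 of 30 did, beside all 11218 genes tested in the lowest bar.

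Markers of other cell types moved with several of these comparisons, given as the sum of linear signals over a list, one probe set per gene. For the 10 astrocyte genes themselves the sum was 29086 to 36010 in proliferative and 126482 to 135640 in differentiated brain cultures, and 24725 to 46725 and 50758 to 60818 in spinal cord. The spinal cord sums depend heavily on Gja1, whose mean log2 signal corresponds to 7109 before and 30962 after differentiation on the linear scale. By gene, 5 of the 10 rose and 3 fell there. The 11 oligodendrocyte markers on the array summed to 3221 to 6816 in proliferative brain cultures, where Mog, Mobp, Aspa, Opalin and Ermn were dim, and to 53137 to 63387 in differentiated ones. In spinal cord they were already at 51480 to 56226 before and 55660 to 64595 after differentiation, with none dim. By gene, none of these markers rose and 2 of 11 fell in spinal cord (median change -0.25), while 9 rose and none fell in brain. Their part in the rise of S100b, Tril and the other genes in brain, and in the higher S100b and Tril of proliferative spinal cord cultures, was not tested.

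The 14 fibroblast and meningeal markers summed to 836 to 1168 and 1354 to 1513 in brain, and to 26397 to 52566 before and 120182 to 137485 after differentiation in spinal cord. Of these 12 rose and none fell in spinal cord, and in brain Lum, Pdgfrb, Ogn and Foxc1 were dim in both states. Col3a1, a fibrillar collagen, averaged 7.41 and 7.56 in brain and 13.29 and 14.73 in spinal cord. The part of these cells in the rises of Gja1 and Gjb2 and in the lower levels of other astrocyte genes in differentiated spinal cord cultures was not tested.

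Neural progenitor markers summed to 30100 to 36423 and 39102 to 44790 in brain and 23147 to 24247 and 17083 to 17645 in spinal cord. Of 9 tested, 5 rose and 2 fell in brain (median change 0.35), and 1 rose and 6 fell in spinal cord (median -1.19). Over all genes, 24.1% rose and 28.5% fell in brain, and 20.9% rose and 22.6% fell in spinal cord. After differentiation 8 of the 9 were lower in spinal cord than in brain, against 22.4% of all genes. Sox2 averaged 12.62, 13.24, 12.81 and 11.63 in proliferative and differentiated brain and then spinal cord cultures. Fabp7, the brightest of the list, averaged 14.29, 14.64, 13.82 and 13.62 in that order. Sox1 was dim throughout, Hes5 in every group but differentiated brain, and Hmga2 in both differentiated groups. Microglia and macrophage markers summed to 576 to 841 and 1649 to 1886 in brain and to 3876 to 7339 and 3431 to 3586 in spinal cord, with Cx3cr1, Itgam and Trem2 dim in all 4 groups. Neuron markers summed to 9780 to 17372 and 9280 to 10670 in brain and 10994 to 11843 and 3427 to 4485 in spinal cord. Of 13 tested, 2 rose and 8 fell in brain (median change -1.27), and none rose and 6 fell in spinal cord (median -0.81). Gad2, Nefl and Slc17a6 were dim in differentiated brain cultures, while Map2, the brightest of the list, averaged 11.58 before and 12.36 after differentiation in brain. Ependymal markers were highest in differentiated brain cultures, at 2784 to 3110 against at most 1318 elsewhere, and at least 6 of the 8 endothelial markers on the array were dim in every group. Oligodendrocyte precursor markers ran from 8017 to 9348 in proliferative brain to 31689 to 33921 after differentiation, and from 34337 to 42157 to 25131 to 27465 in spinal cord. Of 8 tested, 7 rose and none fell in brain, and 1 rose and 6 fell in spinal cord, there with a median change of -2.34. In differentiated spinal cord cultures Olig2 and Pcdh15 were dim, while Pdgfra averaged 12.92 before and 13.64 after differentiation. Schwann cell markers were lowest in differentiated spinal cord cultures, at 4323 to 4824, and between 9709 and 15337 elsewhere. The part of these cells in the results was not tested. The 3' minus 5' signal of Gapdh, a sign of RNA quality, was -0.13 to 0.13 over the 12 arrays. The same measure for Actb was 0.99 to 1.01 in differentiated spinal cord cultures, above the 6 brain arrays (0.73 to 0.84) and above proliferative spinal cord replicates 1 and 3 (0.75 and 0.69), with replicate 2 at 0.99. It was thus highest in the group where most astrocyte genes were lower than in differentiated brain cultures, and its part in the results was not tested.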

How the data were processed

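RNA of 12 rat neural stem cell cultures, grouped by sample title, was measured on Affymetrix Rat230_2 arrays. Each deposited value is the log2 signal of a probe set. The submitters' processing notes name MAS5 and affy, without a version. After conversion from log2, every array had a mean of 500 once 2% was trimmed from each end, so the values stand as scaled per array. Of 31099 probe sets 57 controls were left out, and a probe set was tested if it lay above the array's own 40th percentile on at least 3 of 12 arrays, which kept 20834.

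A mean per group was fitted to the 12 arrays with limma 3.58.1 in R 4.3.3 (lmFit and eBayes, the variance being moderated towards a trend in mean signal, on 8 residual degrees of freedom), and p-values were adjusted by Benjamini-Hochberg over all probe sets tested. The number of arrays limits the precision. The code was tested on simulated data. Figures were drawn in Python 3.11.15. Gene symbols came from the platform annotation, and promoters and gene records from RefSeq tables of GRCr8. The RefSeq windows of some genes overlap another transcript of the same gene.

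The genes, lists and tests were chosen with earlier results of these data known, and the bound for dim groups was taken from that earlier work. Named were all probe sets of the 10 genes, the 2 genes most like each of them, up to 3 genes with the largest called change per pathway list and comparison, and up to 3 markers with the highest mean per marker list. The main fit did not pair samples by replicate number. Alternatives were no filter, a 60th percentile filter, median centring, quantile normalization, a pseudocount of 64, a fit of the groups compared only, no variance trend, the replicate number as a block, and leaving out each array. Leaving out proliferative spinal cord replicate 1 for the pathway lists was chosen after seeing the data.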

Additional observations from a re-analysis of the deposited data

Results flagged for a closer look

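The results below stand out because the response to differentiation differed between the tissues by the test of the difference itself, spinal cord minus brain on the log2 scale, in the limma fit over 20834 probe sets. For 12 probe sets the response was lower in spinal cord. The differences were -6.10 for Tril, -4.60 for S100b, -4.57 for Gpr37l1, -3.88 for Gfap, -3.44 for Sparcl1 and -2.31 for Acsbg1, the last against a dim group. For Aqp4 they were -2.52 (1372190_at), -2.16 (1368981_at) and -1.06 (1387397_at, dim in proliferative brain cultures). This last call was lost with no filter and under both other scalings. For Slc1a2 by 1369694_at the difference was -1.32, a call lost after quantile normalization. For Slc1a3 by 1388064_a_at it was -0.61, a call lost under median centring. By 1371130_at it was -1.07, where the signal fell in both tissues and the call was lost under both other scalings. The calls for 1387397_at, 1369694_at and 1371130_at were also lost when certain single arrays were left out. The response was higher in spinal cord for Gja1, by 1.72 (1372002_at) and 3.68 (1369640_at). Of all tested probe sets 21.7% were called lower and 18.8% higher in this comparison.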

How the results depend on the processing

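Of 150 recomputed counts of astrocyte probe sets 146 stayed within 1.5 times the reported count. Those that did not all concern probe sets higher in proliferative spinal cord than in brain cultures: 8 became 5 with median centring and 5 in a fit of the groups compared only, and leaving out 1 array gave 5 to 8. Of 1190 values of single probe sets 1107 kept direction and call, 60 were no longer called, 13 became called and 10 changed sign, none of them called. The spinal cord change of Sparcl1 was 0.18 without proliferative spinal cord replicate 2 and 0.01 without replicate 3. That of Slc1a2 by 1369694_at was -0.11 without proliferative replicate 2, -0.05 without differentiated replicate 1 and -0.04 without differentiated replicate 2. Between proliferative tissues, Slc1a2 by 1369693_a_at was 0.10 without spinal cord replicate 3, and by 1369694_at -0.10 with median centring, -0.15 with quantile normalization, -0.03 without brain replicate 3 and -0.052 without spinal cord replicate 1. Over the arrays left out, these results ran from -0.50 to 0.18, -0.11 to 0.26, -1.02 to 0.10 and -0.052 to 0.28 in that order. The cause was not tested. With the replicate block, 1 call changed, Aqp4 by 1387397_at in the difference of responses (adjusted p = 0.0566). Deviations of same-numbered samples correlated at -0.119 to 0.048, against -0.107 to 0.149 for samples of different number, so no pairing by number was visible. Whether same-numbered arrays share an animal or preparation is unstated, and these correlations cannot decide it. For pathway lists 173 of 192 recomputed counts stayed within 1.5 times. Signals near the 40th percentile, as for Slc1a2, limit what can be read.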

Other observations

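The probe set of Slc1a3 that went against the others was followed after its values were seen. Of 11208 other genes, Mmd was the nearest to 1371130_at over the 12 arrays, with a root mean square difference of 0.21 on the log2 scale after centring, and Cd200 was next at 0.37. Mmd averaged 10.97 and 9.97 in proliferative and differentiated brain cultures and 12.72 and 10.94 in spinal cord. The other Slc1a3 probe sets lay nearest to Slc27a1 and Epas1. Which transcript 1371130_at reads was not tested.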
